A study of Mus musculus with 30 samples.

Results

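The comparison described here set the terminal ileum of specific-pathogen-free (SPF) mice, which carry a gut microbiota without a defined set of pathogens, against that of germ-free (GF) mice, which carry no microbes. Both groups were of the inbred strain C3H/HeOuJ, 10 weeks old and untreated, and each had 3 libraries, which makes 6 of the 30 libraries of the study. The 6 were chosen by their labels alone (terminal ileum, 10 weeks, SPF or germ-free, no treatment), not by any measured value. The study also held GF mice colonized with SPF microbiota, mice of 6 weeks, and colon libraries, some of them after dextran sulfate sodium. RNA came from whole tissue, not from sorted macrophages, so every value below is a level in a mixture of epithelium, lamina propria, lymphoid tissue and muscle. Nothing in the labels tells whether each library is a mouse of its own, and the p-values then reflect no more than how these samples scatter, which may be technical.

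The terminal ileum is the last stretch of the small intestine, where bile acids are taken back up and where microbes are far denser than in the jejunum. Its epithelium answers microbes with antimicrobial lectins and mucus, intraepithelial lymphocytes sit between the epithelial cells, and plasma cells of the lamina propria secrete immunoglobulin A. Germ-free mice are known for a small intestinal immune compartment with few plasma cells and little MHC class II on the epithelium, and for altered uptake of fat and handling of bile acids.

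The libraries hold reads from the 3′ ends of polyadenylated transcripts, and the deposited values are whole-number counts per gene symbol. Between 2233837 and 6773586 reads a library were assigned to genes, and SPF replicate 3 was the shallowest. Levels are given in CPM, a gene's counts relative to the scaled total of its library, in the order of replicates 1, 2 and 3. Fabp6, the ileal bile acid binding protein, stood at 16888, 30242 and 32054 CPM in SPF and 14637, 33020.0 and 23419 CPM in GF libraries. The colon genes Aqp8 and Hoxd13 had no read in any of the 6. Of 12 genes that define the colon, 5 had enough counts to be tested, of which 1 rose, Saa1, and 2 fell. The make-up of the libraries was uneven. SPF replicate 1 was rich in lymphoid follicle transcripts: the summed level of 30 follicle and follicular B cell genes was 1604, 86 and 95.1 CPM in SPF and 192, 51.4 and 48.2 CPM in GF libraries. SPF replicate 3 had the least muscle transcript, with 22 smooth muscle genes summing to 4555, 6270.1 and 1773 CPM in SPF and 10318, 8216 and 6169.7 CPM in GF libraries. GF replicate 2 had the most fat cell transcript, with 10 adipose genes at 549, 360.3 and 91.2 CPM in SPF and 96.8, 1358 and 80.5 CPM in GF libraries. In bulk tissue, more cells of a type and more RNA per cell cannot be told apart.

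**Figure D1:**
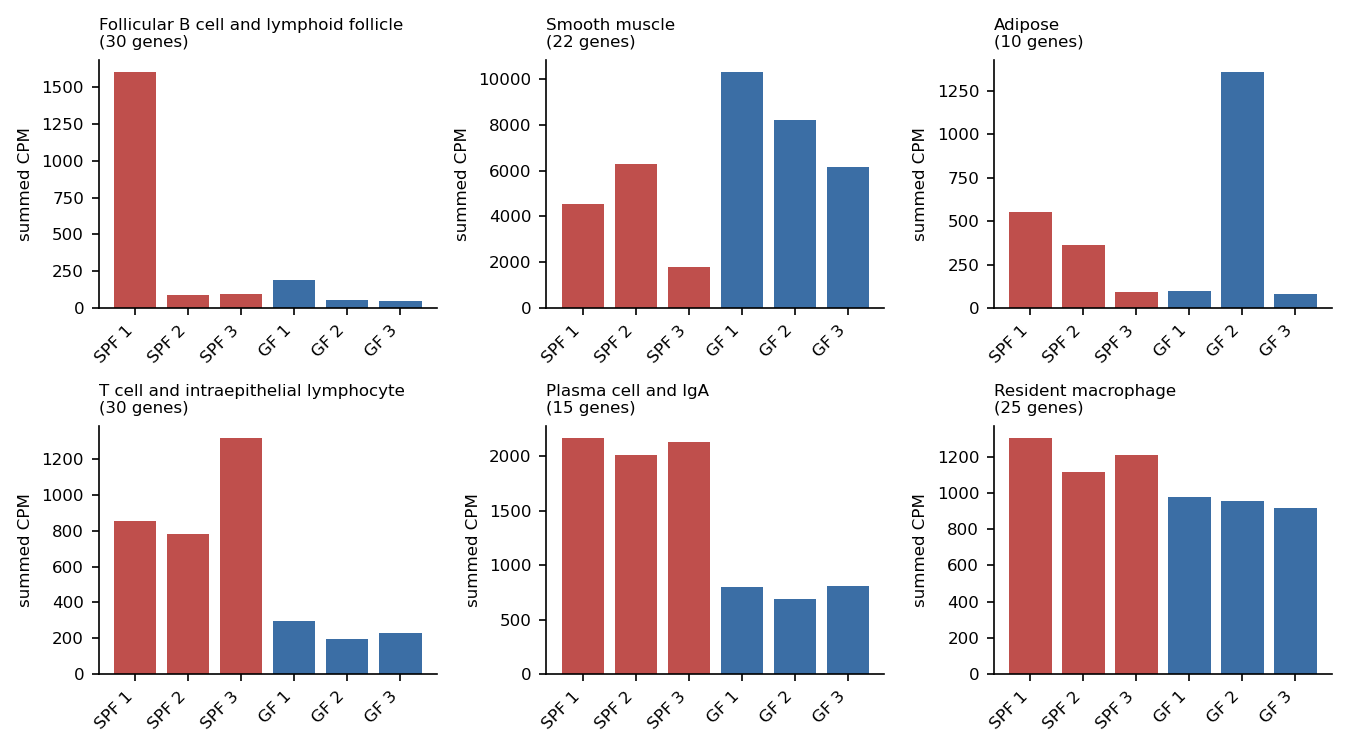
Summed level (CPM, linear axis from 0) of 6 cell type gene lists, 1 bar for each of the 3 SPF (red, left) and 3 GF (blue, right) libraries. The follicle sum stands apart in SPF replicate 1 and the muscle sum is lowest in SPF replicate 3, while the T cell, plasma cell and macrophage sums of all 3 SPF libraries exceed those of all 3 GF libraries.

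Of 13233 genes tested, 821 differed between SPF and GF ileum (6.2% of all tested; edgeR quasi-likelihood test, Benjamini-Hochberg adjusted p under 0.05). Genes that pass this test are said here to be called, and to rise or fall in SPF relative to GF. The test took its spread from all 18 untreated ileum libraries of the series, and a value given with only the libraries compared comes from a fit to the 6 libraries alone, or to 12 for the comparison of ages. The difference was positive for 559 genes (4.22%), higher in SPF, and negative for 262 (1.98%). Rises were the larger changes: 454 genes were at least 2-fold higher and 112 at least 2-fold lower in SPF. The median log2 difference over all genes tested was 0.02. The SPF and GF libraries did not overlap for 790 of the 821 called genes, against 21.2% of all genes tested. Non-overlap of a called gene therefore adds little to its call. The number of calls rested partly on single libraries. It was 515, 462 and 437 without GF replicates 1, 2 and 3, 602, 1010 and 782 without SPF replicates 1, 2 and 3, and 262 without both SPF replicates 1 and 3.

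The largest rises were of genes of cytotoxic lymphocytes, of interferon-induced genes and of epithelial defence. Gzma, the granule protease granzyme A of cytotoxic lymphocytes (chromosome 13, GRCm38 113093825 to 113100981), stood at 155, 193 and 530.1 CPM in SPF and 0.82, 0.591 and 1.32 CPM in GF libraries. Its log2 difference was 8.32 ± 0.91 (± SE, n = 3 each, adjusted p 0.000134), and no SPF library came near the range of the GF libraries. Saa1, an acute-phase apolipoprotein, stood at 161, 326 and 412 CPM in SPF and 1.23, 1.33 and 3.39 CPM in GF libraries (7.23 ± 1.03, adjusted p 0.00107). Nos2, the inducible nitric oxide synthase (chromosome 11, 78920787 to 78960254), stood at 213, 223 and 522 CPM in SPF and 4.31, 2.95 and 3.01 CPM in GF libraries (6.54 ± 0.64, adjusted p 3.67e-05). For both genes the SPF and GF libraries were far apart, and SPF replicate 3 was the highest. Ceacam10, a secreted member of the carcinoembryonic antigen family, rose by 6.73 ± 0.64 on the log2 scale (adjusted p 9.44e-06), with 44.7, 82.8 and 109 CPM in SPF and 1.44, 0.591 and 0.188 CPM in GF libraries. Barx2, a homeobox transcription factor, rose by 4.50 ± 0.42 (adjusted p 1.9e-06), with 54.2, 82.8 and 103 CPM in SPF and 1.85, 5.91 and 2.26 CPM in GF libraries. The remaining large rises were those of Ccl5, Ubd, Igtp, Ifit1bl1, Lck, H2-Aa and H2-Ab1, which are described with their groups.

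Under the same conditions, the largest falls were mostly of transporters and of enzymes that handle small molecules. Slc28a1, a sodium-coupled carrier of pyrimidine nucleosides (chromosome 7, 81114799 to 81170416), stood at 4.91, 5.59 and 0.96 CPM in SPF and 27.7, 39.6 and 48 CPM in GF libraries (-3.16 ± 0.53, adjusted p 0.00121). Rdh7, a retinol dehydrogenase (chromosome 10, 127884028 to 127888817), stood at 58, 67.1 and 60.0 CPM in SPF and 329.7, 335 and 379 CPM in GF libraries (-2.49 ± 0.35, adjusted p 0.000279). Non-overlap of the groups was a condition of the ranking, and Rdh7 was nearly level within each group. Cyp4b1, a cytochrome P450 of fatty acid and xenobiotic oxidation, stood at 24.7, 32.7 and 40.3 CPM in SPF and 135, 150.4 and 129.8 CPM in GF libraries (-2.12 ± 0.36, adjusted p 0.00182). H2-Q10, a secreted MHC class I molecule, had a log2 difference of -2.24 ± 0.32 (adjusted p 4.36e-05), although other H2-Q genes are near-identical and the counting could split reads among them. Plscr4, a phospholipid scramblase, had a log2 difference of -2.13 ± 0.38 (adjusted p 0.000793) and Slc25a45, a mitochondrial carrier, one of -2.12 ± 0.35 (adjusted p 0.000825). Aadac, a microsomal esterase, had one of -1.80 ± 0.30 (adjusted p 0.000292), Cutal one of -2.01 ± 0.28 (adjusted p 3.76e-05) and Vwa1, a matrix protein, one of -1.80 ± 0.34 (adjusted p 0.00142). Cyp2j6 and Akr1c19, also among the 12 largest falls, are described with the metabolic genes. List members that are named below as not called were mostly picked after their values were seen, as familiar members of their lists. Over all genes tested, 4.22% were called higher and 1.98% lower, and list counts of a single call lie near those shares.

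**Figure D2:**
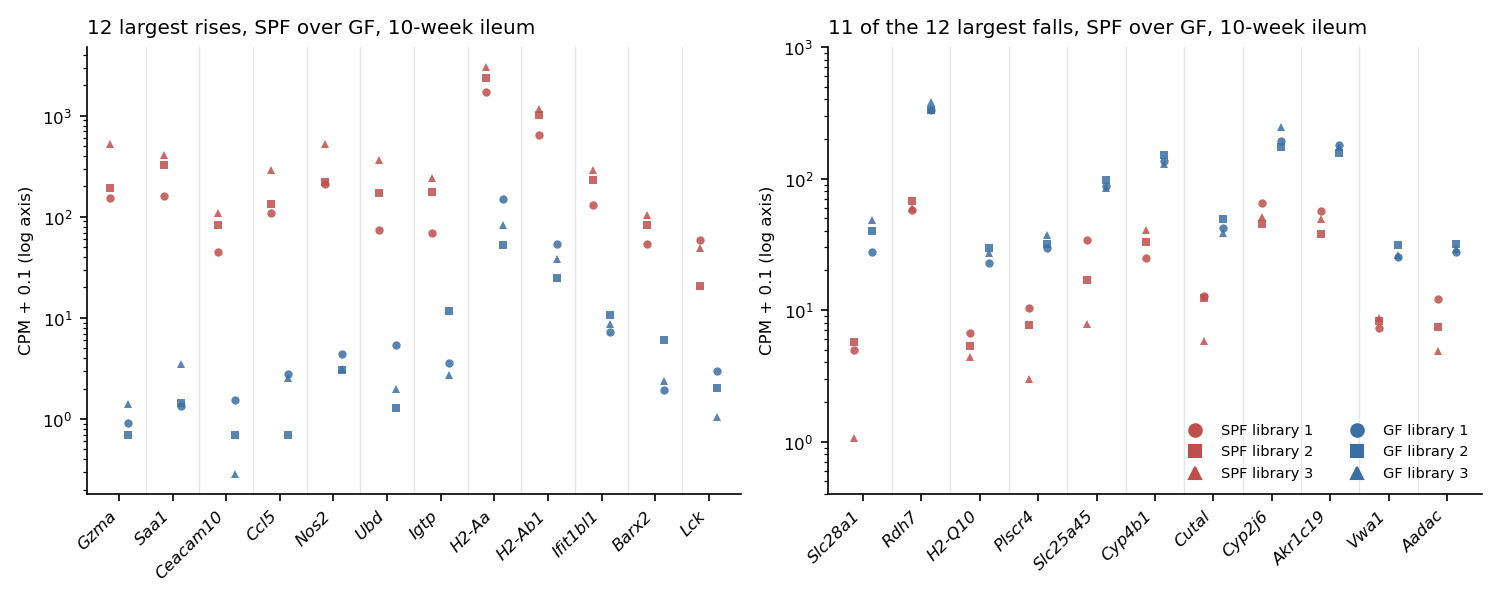
Levels (CPM plus 0.1, log axis) of the 12 largest rises and 11 of the 12 largest falls in the SPF (red, left) and GF (blue, right) libraries; each point is 1 library. The 3 SPF libraries lie above the 3 GF libraries for each gene that rose and below them for each gene that fell, because the genes were chosen among those whose groups do not overlap.

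The 6 stretches of DNA printed next lie just upstream of genes of the interferon-inducible and MHC class II groups, which rose together, and are shown for motifs that such promoters are known for. They are reference sequence from RefSeq (C57BL/6J, build GRCm38), written 5′ to 3′ on the gene's strand and ending at the base before the annotated start. In the first 3, from Irgm2 (chr11:58214727-58214976, plus strand), Igtp (chr11:58199306-58199555, plus) and Gbp7 (chr3:142530086-142530335, plus), capitals mark matches on either strand to the core of the interferon-stimulated response element, which is GAAA, any 2 bases and GAAA again, and to TTCNNNGAA, the gamma-activated site.
Irgm2: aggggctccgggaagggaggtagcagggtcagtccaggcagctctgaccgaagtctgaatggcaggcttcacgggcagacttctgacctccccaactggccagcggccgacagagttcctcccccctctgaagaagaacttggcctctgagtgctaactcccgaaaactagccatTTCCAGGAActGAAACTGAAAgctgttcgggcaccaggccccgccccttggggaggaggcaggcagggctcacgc
Igtp: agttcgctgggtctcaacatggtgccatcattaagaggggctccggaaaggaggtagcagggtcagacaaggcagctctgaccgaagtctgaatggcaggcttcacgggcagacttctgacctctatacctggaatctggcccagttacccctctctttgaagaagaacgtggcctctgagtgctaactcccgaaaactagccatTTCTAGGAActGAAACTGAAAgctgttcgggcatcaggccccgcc
Gbp7: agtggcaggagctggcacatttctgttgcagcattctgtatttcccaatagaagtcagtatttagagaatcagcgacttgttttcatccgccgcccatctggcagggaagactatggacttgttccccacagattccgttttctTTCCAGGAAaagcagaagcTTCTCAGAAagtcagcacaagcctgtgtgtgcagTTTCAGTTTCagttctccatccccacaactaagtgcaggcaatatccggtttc
In the other 3, from H2-DMb1 (chr17:34152941-34153190, plus), H2-Eb1 (chr17:34305617-34305866, plus) and H2-Aa (chr17:34287824-34288073, minus), capitals mark matches on either strand to CCAAT, the core of the Y box of MHC class II promoters.
H2-DMb1: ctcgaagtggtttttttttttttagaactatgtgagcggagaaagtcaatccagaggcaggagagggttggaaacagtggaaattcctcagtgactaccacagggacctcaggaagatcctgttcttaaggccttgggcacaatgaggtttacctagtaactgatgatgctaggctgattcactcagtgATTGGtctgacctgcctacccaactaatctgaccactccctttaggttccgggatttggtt
H2-Eb1: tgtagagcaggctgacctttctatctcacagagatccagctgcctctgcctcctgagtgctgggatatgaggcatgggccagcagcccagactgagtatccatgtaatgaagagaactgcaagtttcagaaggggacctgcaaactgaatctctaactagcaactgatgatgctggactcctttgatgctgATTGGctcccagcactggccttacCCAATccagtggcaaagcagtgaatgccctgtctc
H2-Aa: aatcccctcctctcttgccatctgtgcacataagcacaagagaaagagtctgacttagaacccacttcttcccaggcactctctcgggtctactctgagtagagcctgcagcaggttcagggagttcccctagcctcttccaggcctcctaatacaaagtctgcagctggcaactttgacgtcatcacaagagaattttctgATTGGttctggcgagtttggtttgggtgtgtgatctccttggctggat
Irgm2 and Igtp, immunity-related GTPases and near paralogs, carry both interferon motifs side by side, within 75 bases of the start in Irgm2 and within 45 bases in Igtp, so they are not independent examples. Over the list of interferon-gamma response genes, 12 of the 24 with a promoter in the table (50%) held that response element core in the 250 bases upstream, as did 11 of 21 type I interferon genes (52.4%), 1 of 12 genes of the MHC class II list (8.33%) and 936 of all 27018 genes (3.46%). TTCNNNGAA was found in 9 of 24 (37.5%), 3 of 21 (14.3%), 1 of 12 (8.33%) and 2197 of all genes (8.13%). CCAAT was found in 10 of 12 genes of the MHC class II list (83.3%), against 12 of 24 interferon-gamma genes (50%), 8 of 21 type I genes (38.1%) and 10132 of all genes (37.5%). The 10 include Rfx5 and Rfxank, which encode regulators and not class II chains. The lists also hold other close relatives, such as H2-DMb1 with H2-DMb2 and Tgtp1 with Tgtp2, so their members are not all independent. Letters that match a motif do not show that a factor was bound there in these mice.

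Genes of MHC class II presentation, by which cells show extracellular peptides to helper T cells, were higher in SPF ileum. Of 15 tested, 7 rose and none fell, with a median log2 difference of 2.95 against 0.02 over all genes. H2-DMb1, a chain of the peptide-loading chaperone, stood at 464, 589 and 427 CPM in SPF and 41.2, 25.3 and 23 CPM in GF libraries (4.05 ± 0.27, adjusted p 6.24e-10). The invariant chain gene Cd74 stood at 308, 508 and 318 CPM in SPF and 24, 17.3 and 17.9 CPM in GF libraries (4.27 ± 0.37, adjusted p 1.29e-06). The classical chain gene H2-Aa (chromosome 17, 34282744 to 34287823) stood at 1719.7, 2367 and 3019.8 CPM in SPF and 151, 52.1 and 83.5 CPM in GF libraries (4.64 ± 0.65, adjusted p 0.000953). For all of these the lowest SPF library exceeded the highest GF library several times over. Its partner H2-Ab1 rose by 4.62 ± 0.75 (adjusted p 0.00268), H2-Eb1 by 2.95 ± 0.49 (adjusted p 0.00268) and the chaperone chain H2-DMa by 3.86 ± 0.48 (adjusted p 0.000214). Ciita, the coactivator that switches on class II genes, stood at 57.3, 49.9 and 21.1 CPM in SPF and 8, 1.03 and 1.7 CPM in GF libraries (3.67 ± 0.66, adjusted p 0.00387; 0.084 with only the libraries compared). The 8 members not called included H2-Ob, H2-Oa and H2-Eb2, and the promoter-binding factor Rfx5 (0.83 ± 0.30, adjusted p 0.106). Class II genes are also expressed by B cells, whose markers were high in SPF replicate 1, and the part of B cells in the result was not tested. The count without that library was 7, and the sum over the list was 5237, 6404 and 6628 CPM in SPF and 1046, 719 and 843 CPM in GF libraries.

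Genes induced by interferon-gamma rose almost throughout the list. Of 32 tested, 27 rose and none fell, the median log2 difference was 2.31, and the SPF libraries lay wholly above the GF libraries for 30, against 10.8% of all genes tested. Irgm2 stood at 123, 181 and 215 CPM in SPF and 10.7, 15.1 and 9.8 CPM in GF libraries (3.85 ± 0.22, adjusted p 1.7e-11), the smallest p on the list. Igtp, its neighbour, stood at 69.4, 175 and 242 CPM in SPF and 3.49, 11.5 and 2.64 CPM in GF libraries (4.70 ± 0.54, adjusted p 0.000134; 0.0538 with only the libraries compared). The annotated spans of both genes overlap on chromosome 11, so reads in the shared stretch may be assigned to either or dropped. The immunoproteasome and peptide-transport genes, which supply MHC class I with peptides, rose as well. Psmb9 stood at 205, 273 and 293 CPM in SPF and 38.7, 34.3 and 35.8 CPM in GF libraries (2.82 ± 0.18, adjusted p 7.81e-11). Psmb8 rose by 2.83 ± 0.20 (adjusted p 5.35e-10) and the transporter Tap1 by 3.26 ± 0.23 (adjusted p 5.35e-10). B2m, the light chain of MHC class I, stood at 2277, 3746 and 5059 CPM in SPF and 1276, 1575 and 1418 CPM in GF libraries (1.38 ± 0.24, adjusted p 0.000538), and Nlrc5, the class I coactivator, rose by 4.69 ± 0.69 (adjusted p 7.53e-05). Groups did not overlap for any of these genes, as for most called genes.

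Transcription factors of the pathway also rose. Irf1 rose by 1.25 ± 0.22 (adjusted p 0.000578) and Irf8 by 1.80 ± 0.18 (adjusted p 2.24e-07). Among the effectors, Gbp7, a guanylate-binding protein that attacks pathogen vacuoles, rose by 2.91 ± 0.22 (adjusted p 2.31e-09), and Ido1, which degrades tryptophan, by 4.58 ± 0.54 (adjusted p 4.04e-06). Ubd, a ubiquitin-like modifier, stood at 74.8, 173 and 366 CPM in SPF and 5.33, 1.18 and 1.88 CPM in GF libraries (6.23 ± 0.93, adjusted p 0.00143). Cxcl9, which draws in T cells that bear Cxcr3, rose by 3.93 ± 0.44 (adjusted p 1.78e-06), and Socs1, the feedback inhibitor of the receptor kinases, by 2.26 ± 0.41 (adjusted p 0.000957). Cxcl10 lost its call without GF replicate 3 (adjusted p 0.0529), Gbp8 without GF replicate 1 (0.0727) or 3 (0.083), and Gbp9 without SPF replicate 2 (0.0613) or GF replicate 2 (0.0808) or 3 (0.0849). Gbp2 was called in none of the tests that left out SPF replicate 2 or 3 or any 1 GF library (0.055 to 0.114). The transcript of the ligand itself, Ifng, had 13 counts over the SPF libraries and 0 over the GF libraries, too few to be tested.

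Genes of the antiviral type I interferon response were called higher for 11 of 30 tested and lower for none, with a median of 0.89. The count fell to 7 without SPF replicate 2, 6 without GF replicate 1, 5 without GF replicate 3 and 6 with only the libraries compared. Those called in each test that left 1 library out were Ifit1bl1, Zbp1, Irf9, Parp14 and Ifit1. Zbp1, a sensor of Z-form nucleic acid, stood at 14.2, 35.7 and 44.2 CPM in SPF and 1.03, 1.77 and 2.07 CPM in GF libraries (4.20 ± 0.54, adjusted p 7.36e-05), and Ifit1bl1, an Ifit family member, at 129.6, 232 and 289.5 CPM in SPF and 7.18, 10.5 and 8.67 CPM in GF libraries (4.60 ± 0.44, adjusted p 1.39e-05). Both were many times higher in each SPF library than in any GF library. Irf9, the DNA-binding part of the type I interferon factor, rose by 1.01 ± 0.20 (adjusted p 0.00213). Rsad2, Mx2, Bst2, Xaf1, Usp18 and Rtp4 were also called higher (adjusted p 0.00632 to 0.0403), but none of them in every test that left 1 library out. The 19 members not called included Isg15 (0.66 ± 0.40, adjusted p 0.403), Irf7 (0.22 ± 0.22, adjusted p 0.671) and Mx1 (-0.44 ± 0.52, adjusted p 0.725), each with overlapping groups.

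Markers of T cells and intraepithelial lymphocytes were higher in SPF ileum, and several had almost no reads in GF ileum. Of 25 tested, 19 rose and none fell, and the median log2 difference was 4.18. Cd8a, which marks the bulk of intraepithelial T cells, stood at 9.42, 14.4 and 19.2 CPM in SPF and 0, 0.148 and 0 CPM in GF libraries. It had 183 counts over SPF and 1 over GF libraries, a ratio of 212 with a 95% counting interval of 37.6 to 8421 (adjusted p 3.76e-05). Granzyme B, Gzmb, had 372 counts over SPF and 1 over GF libraries, a ratio of 431 (76.9 to 17072; adjusted p 0.000619). The T cell receptor signalling chains Cd3d and Cd3g had 183 and 85 counts in SPF libraries against 2 and 3 in GF libraries (adjusted p 0.000667 and 0.00137), and Cd3e rose by 5.36 ± 1.01 (adjusted p 0.00355). Itgae, the integrin that binds E-cadherin on epithelial cells, stood at 13.3, 18.6 and 27.9 CPM in SPF and 3.49, 1.18 and 1.13 CPM in GF libraries (3.36 ± 0.46, adjusted p 3.32e-05). The chemokine Ccl5 stood at 109, 135 and 289 CPM in SPF and 2.67, 0.591 and 2.45 CPM in GF libraries (6.59 ± 1.07, adjusted p 0.00268). The granule protein Nkg7 rose by 5.88 ± 0.69 (adjusted p 1.32e-05), the inhibitory receptor chain Klrd1 by 4.18 ± 0.77 (adjusted p 0.00104), Cd160 by 3.01 ± 0.64 (adjusted p 0.00406) and the proximal kinase Lck by 4.49 ± 0.75 (adjusted p 0.00216). Groups did not overlap for any of them, as for most called genes.

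The T cell list summed to 854, 781 and 1318 CPM in SPF and 297, 197 and 229.9 CPM in GF libraries. Within SPF the sum was highest in replicate 3, whose follicle genes were low. Within GF it was highest in replicate 1, which had the most follicle transcript of the GF libraries. The part of follicle content in the T cell result was not tested. The number of calls was again 19 without SPF replicate 1, lay between 14 and 19 in the tests that left 1 library out, and was 12 without both SPF replicates 1 and 3. Cd4 lost its call without SPF replicate 3 (0.0648) or GF replicate 2 (0.0927) or 3 (0.0563), Cd96 without SPF replicate 2 (0.0566) or GF replicate 1 (0.0537) or 2 (0.0725), and Cd247 without GF replicate 2 (0.0671) or 3 (0.0561). Xcl1 lost it without GF replicate 2 (0.06), and Cd244 in 5 of the 6 tests (0.0742 to 0.169), all but the one without SPF replicate 1. Ptprc, the pan-leukocyte phosphatase Cd45, stood at 146, 25.8 and 53.8 CPM in SPF and 19.3, 6.35 and 6.78 CPM in GF libraries and was not called (2.84 ± 0.88, adjusted p 0.0848). Follicular B cell genes had a median log2 difference of 3.27 over 27 tested, but only Ccl20 and Rgs13 were called, and neither was called without SPF replicate 1 (adjusted p 0.417 and 0.402) or without any 1 GF library (0.0584 to 0.08 for Ccl20 and 0.064 to 0.109 for Rgs13). Without both SPF replicates 1 and 3, the difference of Rgs13 was negative (-1.96).

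Plasma cell genes and the IgA transport system were higher in SPF ileum. Of 14 plasma cell genes tested, 8 rose and none fell, with a median of 2.32; genes of the immunoglobulin constant regions were not analysed here. Jchain, which joins IgA into dimers (chromosome 5, 88519809 to 88527891), stood at 618, 965 and 828 CPM in SPF and 61.3, 39.9 and 69.2 CPM in GF libraries (3.83 ± 0.38, adjusted p 1.39e-05). Derl3, of the protein quality control of secretory cells, stood at 43.2, 20.0 and 37 CPM in SPF and 2.67, 1.62 and 1.51 CPM in GF libraries (4.12 ± 0.36, adjusted p 2.19e-08). Each SPF library was several times above each GF library for both. The plasma cell regulators Prdm1 and Irf4 rose by 2.04 ± 0.29 (adjusted p 4.8e-05) and 3.76 ± 0.71 (adjusted p 0.00514), the secretory chaperone partner Mzb1 by 4.25 ± 0.63 (adjusted p 0.00139) and the survival receptor Tnfrsf17 by 3.48 ± 0.56 (adjusted p 0.000231). Pim2 and Eaf2 were called over all libraries but not without SPF replicate 1 (adjusted p 0.352 and 0.22). Eaf2 was also lost without GF replicate 2 (0.0546), and Pim2 without any 1 GF library (0.0936 to 0.111) and with the replicate number as a block (0.0512). On the epithelial side, Pigr, the receptor that carries dimeric IgA into the lumen (chromosome 1, 130826684 to 130852249), stood at 1709.7, 2785 and 2229 CPM in SPF and 451, 537 and 531 CPM in GF libraries (2.15 ± 0.20, adjusted p 5.66e-08). Ccl28, an epithelial chemokine for IgA-secreting cells, stood at 35, 43.3 and 35.1 CPM in SPF and 13.9, 13.7 and 14.9 CPM in GF libraries (1.42 ± 0.22, adjusted p 0.000139).

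A minority of macrophage genes rose. Of 22 resident macrophage genes tested, 7 rose and none fell, the median was 0.91, and the list summed to 1304, 1116 and 1211 CPM in SPF and 976, 955 and 916 CPM in GF libraries. C1qc, a chain of the first complement component that tissue macrophages make, stood at 48.9, 37.7 and 65.3 CPM in SPF and 16.8, 14.9 and 16.6 CPM in GF libraries (1.64 ± 0.28, adjusted p 0.000553). C1qa rose by 1.07 ± 0.22 (adjusted p 0.00314) and Il10ra, the interleukin-10 receptor, by 3.03 ± 0.60 (adjusted p 0.00195). The fractalkine receptor gene Cx3cr1 (1.14 ± 0.32, adjusted p 0.032) lost the call without SPF replicate 1 (0.138) or 2 (0.071) or GF replicate 2 (0.101) or 3 (0.202). The integrin gene Itgax lost it without SPF replicate 1 (0.207) or GF replicate 1 (0.0844) or 2 (0.134), and C1qb without SPF replicate 2 or 3 or any 1 GF library (0.0649 to 0.117). The count over the list was 4 without GF replicate 2 and 2 without both SPF replicates 1 and 3. General macrophage markers did not pass the test: Csf1r had a log2 difference of 0.67 ± 0.29, Adgre1 of 1.58 ± 0.62, Cd163 of 0.16 ± 0.82 and Mrc1 of 0.13 ± 0.30. Ly6c2, found on monocytes and on memory T cells, stood at 35.7, 44.3 and 41.8 CPM in SPF and 3.08, 4.43 and 5.46 CPM in GF libraries (3.21 ± 0.28, adjusted p 2.19e-08). It and the monocyte chemokine receptor Ccr2 were the 2 called of 5 monocyte and neutrophil genes tested, and Ccr2 was lost without SPF replicate 1 (0.0749), GF replicate 2 (0.0982) or GF replicate 3 (0.114). The neutrophil genes S100a8 and S100a9 had 3 and 2 counts over the SPF libraries and none over the GF libraries.

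**Figure D3:**
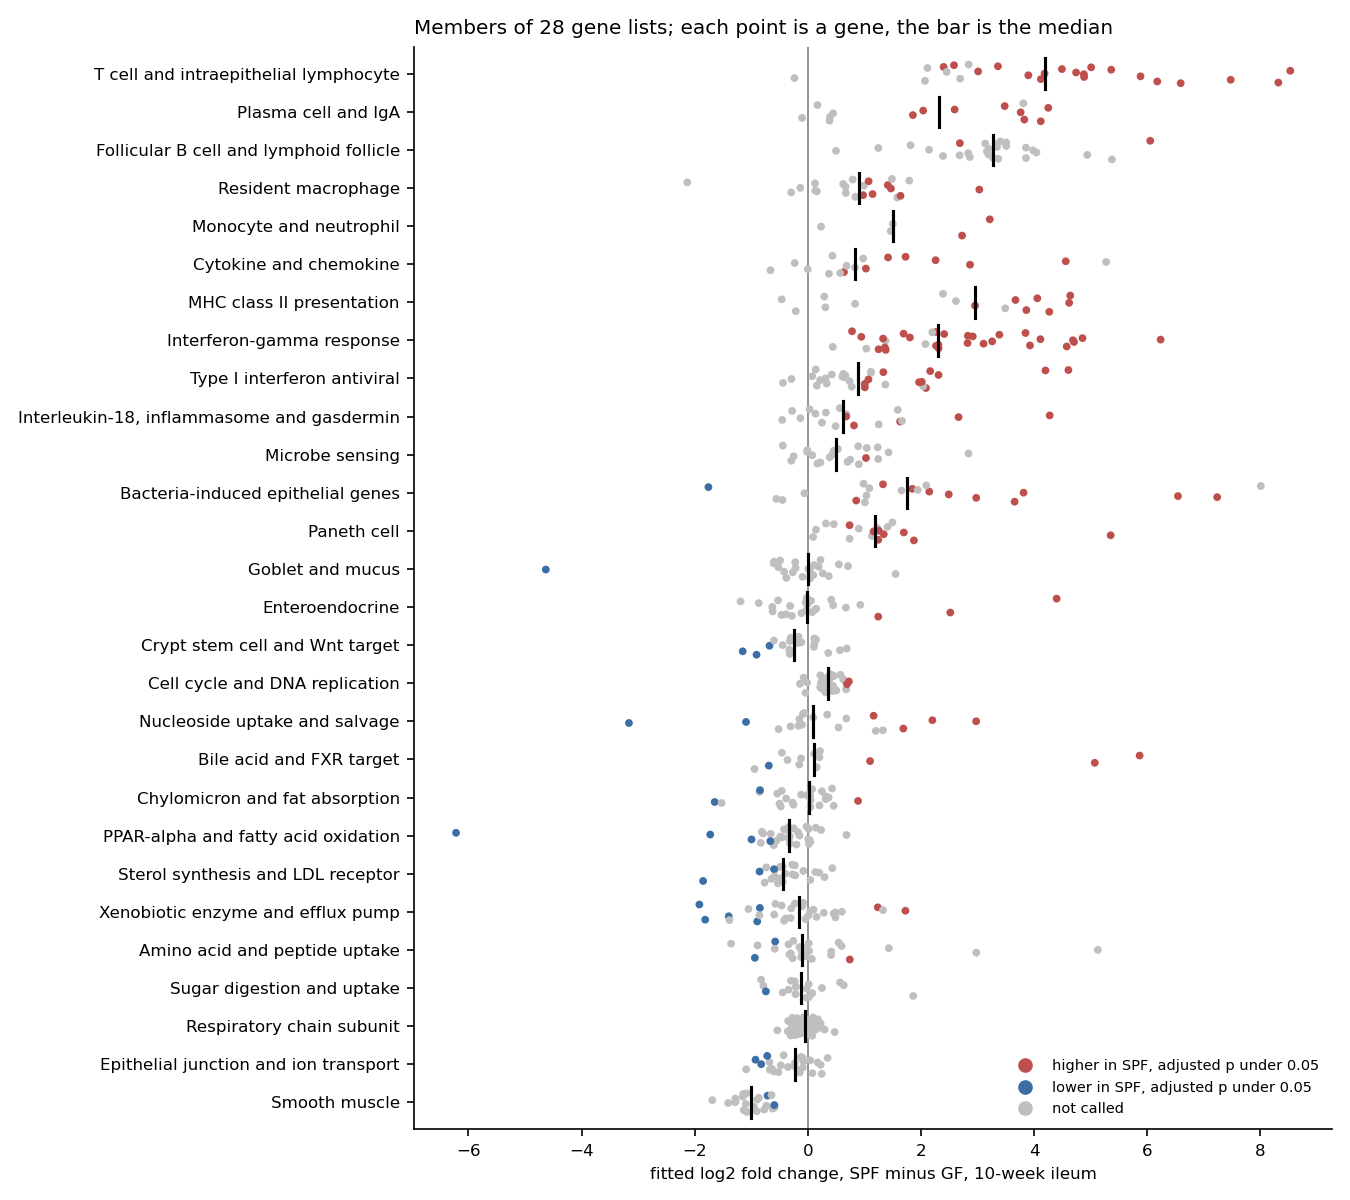
Fitted log2 difference, SPF minus GF, of each tested member of 28 gene lists (points; red where higher and blue where lower in SPF at an adjusted p under 0.05, grey where not called), with the list's median as a black bar. All 32 interferon-gamma response members lie to the right of 0 and 27 are called, T cell members have the highest median, and goblet cell and respiratory chain members are centred near 0.

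Few cytokine transcripts could be measured. Of 31 cytokine and chemokine genes listed, 17 were tested and 7 rose, a count of 3 to 4 without SPF replicate 3 or any 1 GF library and of 3 with only the libraries compared. Tnf stood at 10.5, 2.2 and 5.76 CPM in SPF and 0.82, 0 and 0 CPM in GF libraries (adjusted p 0.00232), and since GF replicates 2 and 3 had no read of it, no fold is given. Il22 had no count in any of the 6 libraries, and Il17a had 3 and Il10 14 counts over the SPF libraries, against none over GF. Of the interleukin-18, inflammasome and gasdermin genes, 5 of 18 rose, with a median log2 difference of 0.62, and 3 without SPF replicate 3, without GF replicate 3 or with only the libraries compared. Il18bp, the secreted decoy of interleukin-18 (chromosome 7, 102014885 to 102018690), stood at 28, 36.1 and 82.6 CPM in SPF and 2.87, 2.22 and 2.26 CPM in GF libraries (4.27 ± 0.50, adjusted p 4.12e-05). Casp4, which senses cytosolic lipopolysaccharide, rose by 1.63 ± 0.28 (adjusted p 0.00051), while Il18 itself was not called (0.56 ± 0.44, adjusted p 0.558). Genes for microbe sensing were mostly not called. Of 22, 1 rose (2 without SPF replicate 2 or GF replicate 1), against 4.22% of all genes tested. It was Nfkbia, the inhibitor and target of NF-kappa-B (1.03 ± 0.19, adjusted p 0.00118). The receptor Tlr4 (0.70 ± 0.51) and adaptor Myd88 (0.08 ± 0.20) did not pass the test.

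Epithelial genes known to be induced by bacteria were higher in SPF ileum, with 10 of 22 called higher and 1 called lower. The median log2 difference was 1.75, or 1.49 with 2 genes that had no count in a group set at the floor of 3 counts. The number called higher was 13 with the replicate block. It was 7 without SPF replicate 3 or any 1 GF library, where Pglyrp1, Lypd8 and Duoxa2 lost their calls. Reg3g, a lectin that kills Gram-positive bacteria (chromosome 6, 78466269 to 78468872), stood at 8399, 21642 and 39455 CPM in SPF and 2070.0, 1630.1 and 1821 CPM in GF libraries (3.65 ± 0.54, adjusted p 0.000808). Reg3b, a related lectin, stood at 8809, 14665 and 22982 CPM in SPF and 2808, 2291 and 3175 CPM in GF libraries (2.49 ± 0.41, adjusted p 0.00121). Within SPF both were lowest in replicate 1, the follicle-rich library, and highest in replicate 3, and both were still above every GF library. Nfkbiz, a nuclear cofactor of NF-kappa-B, stood at 88.9, 98.2 and 155 CPM in SPF and 35.9, 27.9 and 30.5 CPM in GF libraries (1.84 ± 0.26, adjusted p 6.88e-05), and the acute-phase gene Saa3 rose by 3.81 ± 0.54. Reg3a ran the other way, at 135, 308 and 297 CPM in SPF and 985, 765 and 745 CPM in GF libraries (-1.76 ± 0.42, adjusted p 0.023). Its groups did not overlap, but the adjusted p was 0.0809 without SPF replicate 1, 0.0503 without SPF replicate 3, and 0.0701, 0.0514 and 0.051 without GF replicates 1, 2 and 3. Retnlb, a goblet cell protein with antibacterial activity, stood at 265, 484 and 1469 CPM in SPF and 158, 173 and 244 CPM in GF libraries and was not called (1.94 ± 0.54, adjusted p 0.054).

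Paneth cells, the granular cells of the crypt base, had 8 of 18 genes higher and none lower, with a median of 1.19. Pla2g2a, a bactericidal phospholipase, stood at 2156, 4379.8 and 5024 CPM in SPF and 1459.7, 1537 and 1848 CPM in GF libraries (1.25 ± 0.22, adjusted p 0.000642). The lysozyme gene Lyz1 stood at 688, 1554 and 2983 CPM in SPF and 492, 504 and 615 CPM in GF libraries (1.70 ± 0.34, adjusted p 0.00553), and its difference was 1.06 without SPF replicate 3. It was not called with only the libraries compared (adjusted p 0.174). Mptx2, a pentraxin of Paneth cells, stood at 2.52, 10.8 and 23 CPM in SPF and 0.41, 0.295 and 0 CPM in GF libraries (5.35 ± 0.97, adjusted p 0.00406). All 3 genes were lowest, within SPF, in the follicle-rich library. The count of called Paneth genes depended on single libraries and on the fit. It was 2 with only the libraries compared, 10 with the replicate block, 11 without SPF replicate 1, 5 without SPF replicate 2, 4 without SPF replicate 3, 3 without GF replicate 1 and 4 without GF replicate 2. Alpha-defensin genes (Defa24, Defa30 and AY761184 among the calls) are near-identical copies whose reads could be split in counting, so their values are uncertain.

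Goblet cell genes showed no common shift. Of 23 tested, none rose (1 without SPF replicate 1) and 1 fell, and the median log2 difference was 0.01. Muc2, the gel-forming mucin, stood at 3612, 5468 and 9424 CPM in SPF and 4896, 4971 and 5542 CPM in GF libraries (0.26 ± 0.23, adjusted p 0.611). The bacteria-aggregating lectin Zg16 stood at 5057, 7372 and 7670.2 CPM in SPF and 9464, 9020.2 and 10385 CPM in GF libraries, without overlap but not called (-0.52 ± 0.20, adjusted p 0.135). The single fall was that of Best2, a chloride and bicarbonate channel of goblet cells, at 0, 0.799 and 0 CPM in SPF and 4.51, 7.09 and 10.9 CPM in GF libraries (adjusted p 0.00469). SPF replicate 2 held all SPF reads of Best2, so the group has no count without it, and 2 goblet genes were called lower without SPF replicate 3 or with the replicate block. Of 24 glycosyltransferase and Ceacam genes, 5 rose, but Ceacam10 alone in every test that left 1 library out. The count was 3 without SPF replicate 1 or GF replicate 1, and 1 without GF replicate 2 or 3. B3gnt7, which adds to sugar chains of glycoproteins, stood at 33.3, 86.8 and 110.0 CPM in SPF and 8.82, 7.24 and 9.04 CPM in GF libraries (3.17 ± 0.68, adjusted p 0.0154), and its adjusted p was 0.0587, 0.0733 and 0.0628 without GF replicates 1, 2 and 3. St6gal1 and Gcnt1 were highest in the follicle-rich SPF replicate 1 and not called without it (adjusted p 0.225 and 0.203), nor without GF replicate 2 (0.0689 and 0.0766) or 3 (0.0688 and 0.0839).

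Few genes of the crypt and of hormone cells were called. Of 20 stem cell and Wnt target genes, 3 fell and none rose (median -0.24), against 1.98% lower and 4.22% higher over all genes tested. Of that list, 1 was called without SPF replicate 3, GF replicate 2 or GF replicate 3, or with only the libraries compared. Cdk6, a kinase of the early cell cycle, stood at 147, 125 and 122 CPM in SPF and 222, 186 and 224 CPM in GF libraries (-0.68 ± 0.15, adjusted p 0.00553), with no overlap. The other falls were those of Nkd1 (adjusted p 0.0203) and Ascl2 (adjusted p 0.043). Nkd1 was lost without SPF replicate 3 (0.0641) or GF replicate 2 (0.0688) or 3 (0.0609). Ascl2 was lost without SPF replicate 2 or 3 or any 1 GF library (0.0617 to 0.12). The stem cell genes Lgr5 (0.69 ± 0.31) and Olfm4 (0.14 ± 0.20) were not called. Of 32 cell cycle genes 28 had a positive difference, with a median of 0.35, against 6875 of all 13233 genes tested. The 2 of 32 called higher, against 4.22% of all genes tested, were Mki67 (0.72 ± 0.20, adjusted p 0.0299) and Rrm1 (0.69 ± 0.21, adjusted p 0.0433). Neither was called without SPF replicate 1, SPF replicate 3 or any 1 GF library (0.0613 to 0.183 for Mki67 and 0.0548 to 0.265 for Rrm1). Rrm1 was not called with the replicate block (0.0526). Among 25 enteroendocrine genes 3 rose, 1 without SPF replicate 3 or GF replicate 1 and 0 without GF replicate 2. None was called lower over all libraries, but 2 were without SPF replicate 2 and 1 without SPF replicate 3. Cck, the hormone that makes the gallbladder contract, stood at 20.2, 25.6 and 25.9 CPM in SPF and 8.61, 8.27 and 13.2 CPM in GF libraries (1.24 ± 0.27, adjusted p 0.00536; 0.0521 without GF replicate 2). Tac1, the substance P precursor, stood at 40.9, 40.7 and 129.7 CPM in SPF and 13.5, 10.3 and 11.9 CPM in GF libraries (adjusted p 0.0253), with SPF replicate 3 far above the others and a call lost without it (0.0694) or without GF replicate 1 (0.0758), 2 (0.105) or 3 (0.0977). Of 11 tuft and mast cell genes, the mast cell proteases Mcpt1 and Mcpt2 were called, but neither without SPF replicate 3 or any 1 GF library (0.0589 to 0.0941 for Mcpt1 and 0.0695 to 0.132 for Mcpt2), and Mcpt2 not without SPF replicate 2 (0.124).

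Genes of bile acid handling moved in both directions, with 3 of 13 higher, 1 lower and a median of 0.11. Slc51b, a subunit of the transporter that passes bile acids out of the enterocyte and a target of the receptor FXR, stood at 276, 436 and 605 CPM in SPF and 173, 232 and 207 CPM in GF libraries (1.10 ± 0.22, adjusted p 0.00213). Fgf15, the ileal hormone that represses bile acid synthesis in the liver, stood at 23.3, 16.4 and 68.7 CPM in SPF and 0, 1.48 and 0 CPM in GF libraries, with reads in 1 GF library alone (adjusted p 0.0242). Nr0b2, another FXR target, stood at 14.5, 13.6 and 26.9 CPM in SPF and 0, 1.33 and 0 CPM in GF libraries (adjusted p 0.0211). Both calls rested on few libraries, and no fold is given for either. The adjusted p of Fgf15 was 0.0567 without SPF replicate 3 and 0.0899, 0.0677 and 0.103 without GF replicates 1, 2 and 3, and that of Nr0b2 was 0.0787 and 0.0889 without GF replicates 1 and 3. Slc10a2, the uptake transporter of the brush border, stood at 262, 220.0 and 341 CPM in SPF and 422, 413 and 490.3 CPM in GF libraries, without overlap (-0.69 ± 0.20, adjusted p 0.034). It was not called without SPF replicate 1 (0.0761) or 2 (0.102) or without GF replicate 1 (0.0541), 2 (0.0559) or 3 (0.12).

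Sterol and fatty acid genes leaned lower in SPF. Of 25 sterol synthesis genes, 3 fell and none rose, with a median of -0.45, and the SPF libraries lay wholly below the GF libraries for 15, against 10.4% of all genes tested. Cyp51, a demethylase of the cholesterol pathway, stood at 231, 275 and 178 CPM in SPF and 435, 397 and 408 CPM in GF libraries (-0.85 ± 0.19, adjusted p 0.00549). It was lower in each SPF library than in any GF library. Pmvk, another of these falls (adjusted p 0.0374), was lost without SPF replicate 1 or 3 or any 1 GF library (0.0574 to 0.119). It was also lost with only the libraries compared (0.0753). Of 31 genes of PPAR-alpha and fatty acid oxidation, 4 fell and none rose (median -0.34), and 2 were called without SPF replicate 1, SPF replicate 3 or GF replicate 3. Angptl4, a secreted inhibitor of lipoprotein lipase, stood at 43.4, 60.7 and 22.6 CPM in SPF and 115, 152 and 162 CPM in GF libraries (-1.73 ± 0.24, adjusted p 3.44e-05). Cyp4a10, a fatty acid hydroxylase with near-identical relatives, had 2 counts over SPF and 198 over GF libraries, a ratio of 0.0117 with a counting interval of 0.00141 to 0.0428 (adjusted p 0.00413). Ppara, the receptor itself, stood at 99.7, 128 and 92.7 CPM in SPF and 196, 197 and 249 CPM in GF libraries (adjusted p 0.0166) and was not called without SPF replicate 1 (0.0683) or 3 (0.0649) or GF replicate 3 (0.08). Hsd17b4, also called lower (adjusted p 0.0381), was called in none of the tests that left 1 library out (0.0562 to 0.138). Of 27 fat absorption genes 1 rose, Apoa4, and 2 fell, the fatty acid binding proteins Fabp1 and Fabp2. Each lost its call without certain libraries: Apoa4 (0.89 ± 0.21) without GF replicate 1 (0.0734) or 3 (0.0567), Fabp2 (-0.85 ± 0.23) without SPF replicate 1 (0.0909) or GF replicate 2 (0.125) or 3 (0.053), and Fabp1 (-1.65 ± 0.45) without SPF replicate 2 (0.104) or 3 (0.0627) or GF replicate 1 (0.124) or 3 (0.108).

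**Figure D4:**
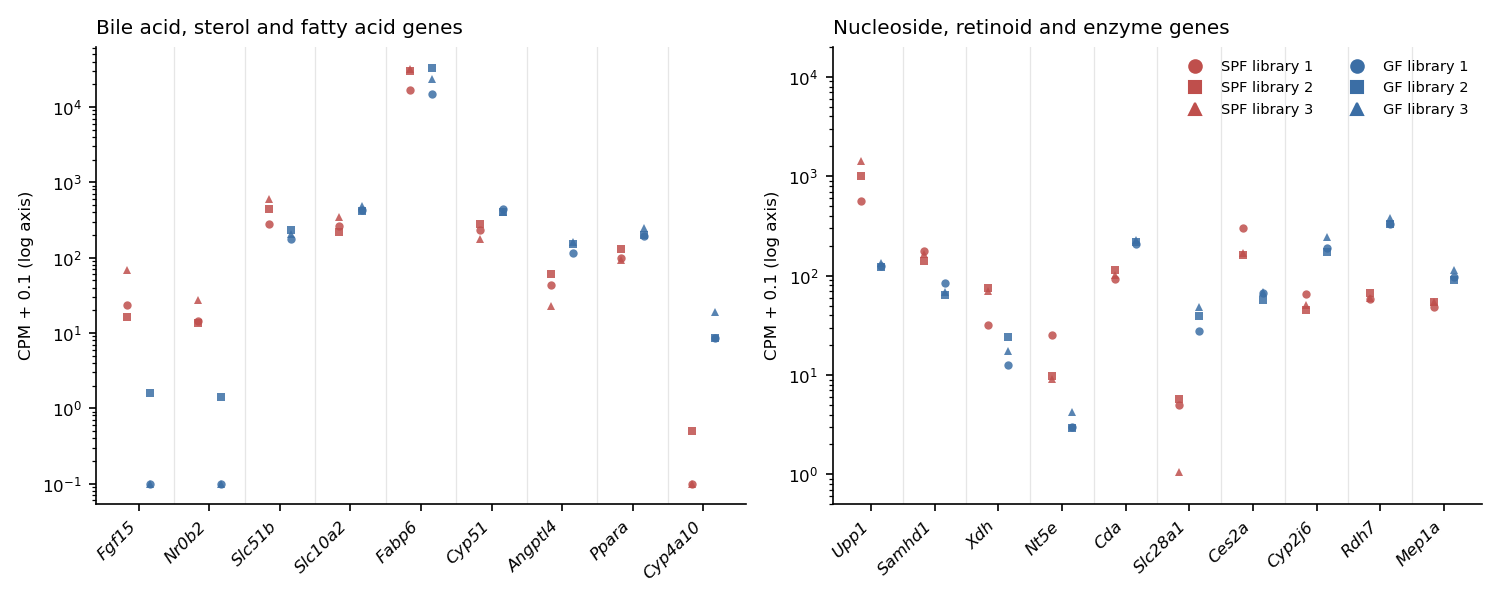
Levels (CPM plus 0.1, log axis) of bile acid, sterol, fatty acid, nucleoside and enzyme genes in the SPF (red, left) and GF (blue, right) libraries; each point is 1 library. Upp1 lies at 559 to 1409 CPM in SPF and 122 to 134 CPM in GF libraries, while Angptl4 and Cyp2j6 are lower in all 3 SPF libraries.

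Nucleoside genes changed in both directions. Upp1, uridine phosphorylase, which breaks down uridine (chromosome 11, 9118103 to 9136170), stood at 559, 1017 and 1409 CPM in SPF and 124, 122 and 134 CPM in GF libraries (2.97 ± 0.26, adjusted p 5.99e-08). Xdh, the enzyme that makes uric acid, stood at 32, 75.5 and 70.1 CPM in SPF and 12.5, 24.1 and 17.5 CPM in GF libraries (1.69 ± 0.28, adjusted p 0.000335). The lowest SPF library was above the highest GF library for both. Samhd1, a deoxynucleotide hydrolase, rose by 1.16 ± 0.16 (adjusted p 4.33e-05) and Nt5e, the surface nucleotidase Cd73, by 2.20 ± 0.40 (adjusted p 0.00101). Cda, cytidine deaminase, stood at 92.4, 113 and 101 CPM in SPF and 209.7, 216 and 228 CPM in GF libraries (-1.09 ± 0.21, adjusted p 0.00152). With Slc28a1, described above, it made 2 falls and 4 rises among 19 genes tested (median 0.09). The purine carrier Slc28a2 (1.33 ± 0.49, adjusted p 0.151) and adenosine deaminase Ada (1.20 ± 0.44, adjusted p 0.142) were above GF in each SPF library but not called.

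Of 32 xenobiotic enzymes and pumps, 5 fell and 2 rose (median -0.17). Cyp2j6, a P450 epoxygenase of the small intestine, stood at 65, 44.7 and 50.9 CPM in SPF and 192, 173 and 246 CPM in GF libraries (-1.92 ± 0.20, adjusted p 3.87e-07). Akr1c19, an aldo-keto reductase, stood at 56.6, 37.9 and 49.5 CPM in SPF and 179, 156 and 172 CPM in GF libraries (-1.82 ± 0.22, adjusted p 4.91e-06). Both belong to the ranked falls, for which non-overlap of the groups was a condition. Cyp2d26, another P450 with close relatives, had a log2 difference of -1.40 ± 0.28 (adjusted p 0.00373). The efflux pump Abcb1a (P-glycoprotein) and the retinal dehydrogenase Aldh1a1 were also called lower (-0.90 ± 0.25 and -0.85 ± 0.21), Aldh1a1 not without GF replicate 1 (0.0537) and Abcb1a not without SPF replicate 1 or 2 or any 1 GF library (0.0523 to 0.0846). Ces2a, a carboxylesterase, ran against them, at 304, 159.9 and 169 CPM in SPF and 66.4, 56.7 and 69.2 CPM in GF libraries (1.72 ± 0.28, adjusted p 0.000668). The other rise, Cyp3a25, was lost without SPF replicate 1 (0.175), SPF replicate 3 (0.0985), or GF replicate 1 (0.108), 2 (0.107) or 3 (0.124). Cyp1a1, a target of the aryl hydrocarbon receptor, had 8 counts over the SPF libraries and none over the GF libraries and was not tested.

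Genes of digestion and of ion transport were mostly not called. Mep1a, a brush border protease, stood at 48.7, 54.5 and 53.8 CPM in SPF and 96.2, 91.3 and 113 CPM in GF libraries (-0.94 ± 0.20, adjusted p 0.00432), 1 of 2 falls among 27 amino acid and peptide genes; the other, the peptide carrier Slc15a1, was lost without SPF replicate 3 or any 1 GF library (0.0588 to 0.139). The single rise on that list, Ace, was lost without SPF replicate 2 (0.0833), GF replicate 1 (0.0671) or GF replicate 3 (0.0979), and 3 members were called higher with the replicate block. Of 27 junction and ion transport genes 3 fell, and 5 without SPF replicate 3. Guca2a, the peptide hormone guanylin, stood at 918, 1099 and 1386 CPM in SPF and 1816, 1957 and 2253 CPM in GF libraries (-0.83 ± 0.19, adjusted p 0.00865), and its receptor Gucy2c at 215, 254 and 179 CPM in SPF and 526, 375 and 334 CPM in GF libraries (-0.93 ± 0.21, adjusted p 0.00726; 0.0612 without GF replicate 1). Of 50 respiratory chain subunits none was called, and the median was -0.05. Among 23 metal genes the zinc exporter Slc30a1 rose and among 18 sugar genes the glucose-sensing factor Mlxipl fell, and neither was called in all tests that left 1 library out. Slc30a1 was lost without SPF replicate 3 or any 1 GF library (0.0638 to 0.111), and Mlxipl without SPF replicate 1 or 3 or GF replicate 2 or 3 (0.0946 to 0.178). Of 11 genes that define ileal enterocytes 4 rose and 3 fell (2 and 1 with only the libraries compared; median 0.15), most of them described above. Cubn, the receptor for vitamin B12 bound to intrinsic factor, stood at 119, 121 and 80.7 CPM in SPF and 169.5, 223 and 289 CPM in GF libraries (-1.08 ± 0.25, adjusted p 0.00865; 0.0593 without GF replicate 3).

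The muscle and nerve lists mark the outer wall of the gut. All 22 smooth muscle genes had a negative difference, with a median of -1.01, against 6358 of all 13233 genes tested. The SPF libraries lay wholly below the GF libraries for 13 of the 22, against 10.4% of all genes tested. The creatine kinase gene Ckb and the tropomyosin gene Tpm1 were called (adjusted p 0.0359 and 0.0434). Both calls ended without SPF replicate 3, the library with the least muscle transcript (-0.45, adjusted p 0.14 for Ckb and -0.45, adjusted p 0.171 for Tpm1), and that of Ckb also without GF replicate 3 (0.0648). The number of muscle genes called lower was 0 without SPF replicate 1, GF replicate 1 or GF replicate 2 and with only the libraries compared, 6 without SPF replicate 2, 3 without SPF replicate 3 and 11 with the replicate block. Myh11, the smooth muscle myosin, stood at 199, 293 and 14.4 CPM in SPF and 394, 427 and 319.8 CPM in GF libraries. The summed muscle level, given at the start, was lower in SPF replicates 1 and 3 than in every GF library, while SPF replicate 2 lay just above GF replicate 3. The part of muscle content in the results above was not tested. None of 20 enteric neuron and glia genes was called (median -0.25), although 2 were called lower without SPF replicate 2, and 1 higher without SPF replicate 1, without SPF replicate 3 or with the replicate block. Of 27 matrix genes only Fn1, fibronectin, was called (-0.98 ± 0.29, adjusted p 0.0434), and it was lost without SPF replicate 1 (0.115), SPF replicate 3 (0.135), GF replicate 1 (0.178) or GF replicate 2 (0.102). Zfp36, which destabilizes cytokine transcripts, and the stress factor Atf3 were called among 22 immediate early and heat shock genes (0.88 ± 0.19 and 1.12 ± 0.26); Zfp36 was lost without SPF replicate 1 (0.0517) and Atf3 without SPF replicate 3 (0.0627) or GF replicate 1 (0.0511). The circadian genes Nfil3, Bhlhe41 and Tef were called over all libraries, and each was lost without GF replicate 2 (0.102, 0.114 and 0.0704) or 3 (0.101, 0.177 and 0.126), among other libraries.

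The 6-week ileum gives the same contrast in other libraries, 3 SPF and 3 GF, none of them shared with the 10-week groups. There 1017 of the 13233 genes tested were called. At both ages 377 were called in the same direction, which is 45.9% of the 10-week calls and 37.1% of the 6-week calls. Both contrasts took each gene's spread from the same fit of 18 libraries, so the shared calls are not independent. A test of the difference between the ages called 2 genes (0.0151% of those tested), with 1132 at an unadjusted p under 0.05. The number of genes called between the ages, 2 here, was 28 in DESeq2, 7 with no filter on low counts and 6 with only the libraries compared. It was 0 to 13 with 1 library left out. Sgk1, a kinase that raises sodium uptake (chromosome 10, 21882184 to 21999903), stood at 93.8, 79.1 and 83.1 CPM in SPF and 240.1, 175 and 204 CPM in GF libraries at 10 weeks (-1.27 ± 0.16, adjusted p 8.87e-06). At 6 weeks it stood at 186, 168 and 144 CPM in SPF and 147, 156 and 172 CPM in GF libraries (0.07 ± 0.15, adjusted p 0.87). The groups were apart at 10 weeks and overlapped at 6 weeks, and the differences themselves differed by -1.34 ± 0.22 (adjusted p 0.0155).

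Apoa4, an apolipoprotein of chylomicrons (chromosome 9, 46240696 to 46243459), stood at 236, 296 and 327 CPM in SPF and 134, 177 and 151 CPM in GF libraries at 10 weeks. At 6 weeks it stood at 101, 82.6 and 109 CPM in SPF and 255, 165 and 129 CPM in GF libraries (-0.91 ± 0.21, adjusted p 0.00663). It was thus higher in SPF at 10 weeks and lower at 6 weeks, and the differences differed by 1.79 ± 0.30 (adjusted p 0.0155). For both Sgk1 and Apoa4 the test of the ages was lost without 10-week GF replicate 1 or 3, 6-week SPF replicate 1 or 2, or 6-week GF replicate 1 or 2 (adjusted p 0.0697 to 0.135 for Sgk1 and 0.0691 to 0.139 for Apoa4). The next genes by p did not pass it. Pdk4, which holds back glucose oxidation, differed at 6 weeks, with 6.31, 4.94 and 8.72 CPM in SPF and 37.3, 36.5 and 60.2 CPM in GF libraries, and was not called at 10 weeks, with 9.68, 11.4 and 9.12 CPM in SPF and 12.1, 16.5 and 13.9 CPM in GF libraries (adjusted p of the difference 0.0927). Cytip and Lurap1l, with the same adjusted p, were called in opposite directions at the 2 ages, but the 10-week calls were lost without some single libraries (adjusted p up to 0.363 for Cytip without SPF replicate 1 and 0.135 for Lurap1l without GF replicate 1). By list, 20 genes of PPAR-alpha and fatty acid oxidation were called lower at 6 weeks and 4 at 10 weeks, and T cell genes were called higher for 9 at 6 weeks and 19 at 10 weeks. Whether these counts differ was not tested beyond the genes themselves.

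**Figure D5:**
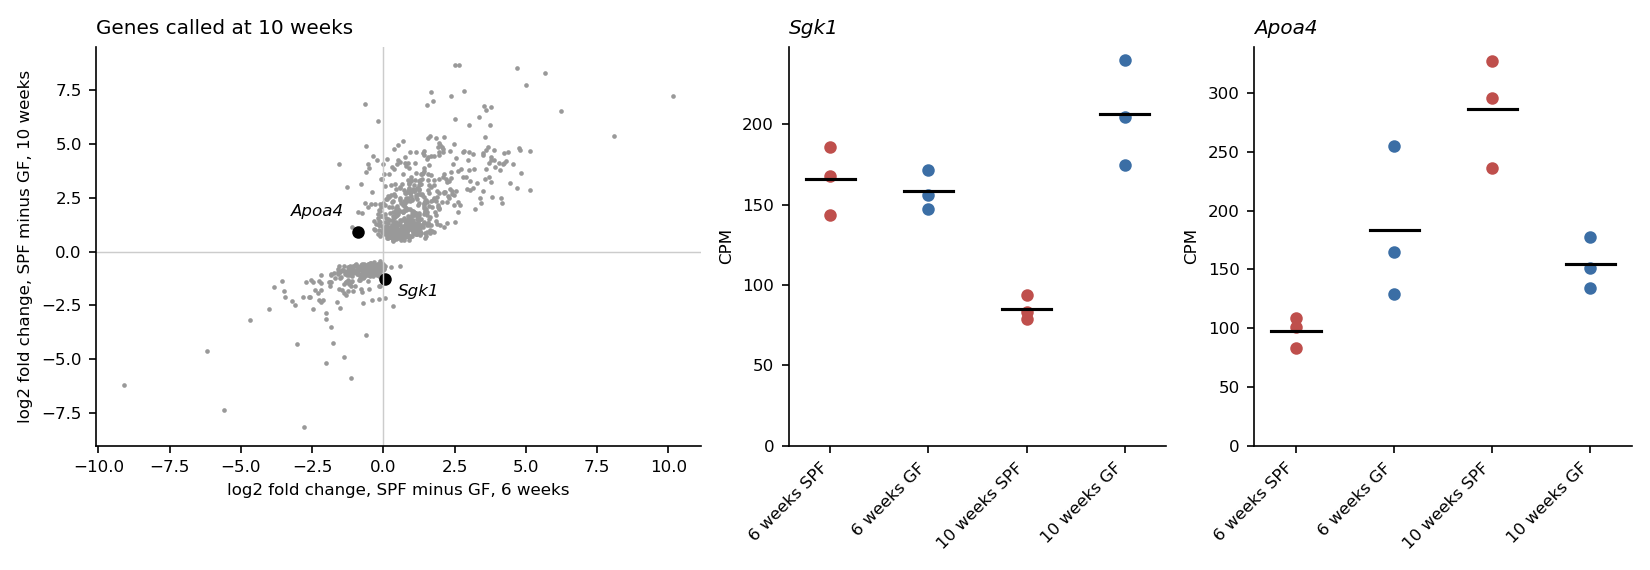
Left, log2 difference, SPF minus GF, at 10 weeks (vertical) against that at 6 weeks (horizontal) for the genes called at 10 weeks; each point is 1 gene. Middle and right, levels (CPM) of Sgk1 and Apoa4 in the 3 SPF (red) and 3 GF (blue) libraries of each age, with the mean as a bar: SPF lies below GF for Sgk1 at 10 weeks, and for Apoa4 SPF lies above GF at 10 weeks and below it at 6 weeks.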

How the data were processed

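Polyadenylated 3′ ends of total RNA from whole terminal ileum were sequenced with the QuantSeq 3′ kit for Ion Torrent, per the labels' protocols. The authors deposited raw counts, whole numbers of reads per gene symbol for each library, and the submitters' processing notes name Trimmomatic 0.36, FastQC 0.11.5, STAR 2.5.3a, HTSeq and build mm10; the HTSeq version, strand setting and annotation are not given in the sources used here. A 3′ count does not grow with transcript length, and reads of overlapping or near-identical genes can be dropped or split.

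The 5 summary lines of each file were left out. Of the listed reads, 46.5% to 49.3% were assigned to genes, 29.5% to 34.3% aligned to more than 1 place and 18.5% to 22.4% lay in no gene. The 18 untreated ileum libraries of 6 groups were fitted together in edgeR 4.0.16 (R 4.3.3) with TMM scaling, filterByExpr and the quasi-likelihood test, whose biological coefficient of variation was 0.234; the 12 colon libraries were not used. A gene was called where its p, adjusted by Benjamini-Hochberg over all 13233 genes tested, was under 0.05, and the test was checked on simulated counts. Of the 24746 symbols, 24160 matched 1 GENCODE vM21 gene, from which locations were taken.

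Genes named are the 12 largest rises and falls among called, non-overlapping genes with a mean log2 CPM of at least 3, up to 4 members of each list with the smallest p, any called list member, and the 5 genes with the smallest p between ages; some genes that this rule names are not reported here. The 41 lists hold 975 genes, of which 831 were tested and 180 called. The comparison, its lists and its tests were chosen with earlier results of these data known. Intervals and floors (3 counts over a group) cover counting error only. Same-numbered SPF and GF libraries deviated together from their group means (r of 0.25, 0.19 and 0.16 for numbers 1, 2 and 3). The mean of -0.10 for unlike numbers adds no evidence, because the deviations within a group cancel out. With 3 libraries a group, these values cannot decide whether the numbers pair the libraries, and the labels do not say. A fit with the replicate number as a block was run as an alternative. Values in the report come from the fit without that block unless it is named. Replicates of a group differed beyond sampling noise (chi-square per degree of freedom 8.99 to 29.0). Alternatives were DESeq2 1.42.0, its size factors in edgeR, no filter, only the libraries compared, the replicate block, and leaving libraries out.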

Additional observations from a re-analysis of the deposited data

Results flagged for a closer look

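Sgk1 and Apoa4 stood out because the difference between SPF and GF ileum itself differed between 10 and 6 weeks. For Sgk1, SPF minus GF at 10 weeks less SPF minus GF at 6 weeks was -1.34 on the log2 scale, and for Apoa4 it was 1.79, both by a test of that difference (edgeR, adjusted p 0.0155). Groups of 3 libraries were not searched for single outlying libraries.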

How the results depend on the processing

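The number of genes called between SPF and GF ileum was 821, with 1074 in DESeq2 (which called all 821 of them), 817 with DESeq2 size factors in edgeR, 808 with no filter, 502 with only the libraries compared and 262 without SPF replicates 1 and 3. Leaving out 1 library at a time gave 437 to 1010. Of the listed genes 180 were called, 104 without SPF replicates 1 and 3, and 117 to 179 with 1 library left out. With the replicate block the counts were 941 genes, 203 listed genes and 2 genes differing between ages. The number differing between ages was 28 in DESeq2, 7 with no filter, 6 with only the libraries compared, 9 with the replicate block and only those libraries, 0 without SPF replicates 1 and 3, and 0 to 13 with 1 library left out. The difference of Rgs13 was reversed without SPF replicates 1 and 3 (-1.96). Of 192 named genes that were called, 106 were called in each test that left 1 library out and 76 under all 13 alternatives. Among named genes the block ended the calls of Pim2, Rrm1 and Pecam1 and ended no other. Using only the libraries compared ended 48 named calls, of which Ciita, Ifit1, Igtp and Lyz1 (adjusted p 0.084, 0.137, 0.0538 and 0.174) were called in each test that left 1 library out. Where a lone library is left in a group, it is assumed to vary like the other groups. Causes of these changes were not tested. Depth limits low genes: 13774 to 15404 symbols had a read in a library.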

Other observations

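The genes described here were chosen after their values were seen, stand on none of the lists, and were not recomputed with libraries left out. Retsat, which saturates retinol, stood at 59.3, 66.1 and 73 CPM in SPF and 126, 133 and 145 CPM in GF libraries (-1.03 ± 0.17 on the log2 scale, edgeR adjusted p 0.000349). Lrat, which esterifies retinol for storage, stood at 24.4, 25.4 and 22.6 CPM in SPF and 64, 37.5 and 40.3 CPM in GF libraries (-0.96 ± 0.22, adjusted p 0.00711). Neither gene's groups overlapped. Isx, a homeobox repressor of vitamin A uptake, had a difference of -0.57 ± 0.17 (adjusted p 0.0438).

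Gclc, a subunit of the rate-limiting ligase of glutathione synthesis, stood at 88.1, 60.1 and 61.9 CPM in SPF and 152, 138 and 149.8 CPM in GF libraries (-1.06 ± 0.17, adjusted p 0.000195), and Gss, glutathione synthetase, had a difference of -0.76 ± 0.19 (adjusted p 0.0139). Hsd11b2, which inactivates glucocorticoids and so guards the mineralocorticoid receptor, stood at 47.9, 46.9 and 53.3 CPM in SPF and 124, 124 and 174 CPM in GF libraries (-1.52 ± 0.19, adjusted p 1.34e-05). Dmbt1, a secreted scavenger protein that binds bacteria, stood at 632, 1096 and 1656 CPM in SPF and 193, 217 and 200.5 CPM in GF libraries (2.47 ± 0.37, adjusted p 0.000602). Cyba, the membrane subunit shared by NADPH oxidases, rose by 1.90 ± 0.21 (adjusted p 1.48e-06), and Ccnd1, cyclin D1, by 0.99 ± 0.16 (adjusted p 0.000236). The groups of all these genes lay apart.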
